A study of Homo sapiens with 12 samples.

Results

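TGFB1, TGFBR2, SMAD3, SMAD4, SMAD6, SMAD7, BMP4, ID1, ID2 and ID3 are 10 genes of transforming growth factor beta and bone morphogenetic protein signalling, chosen by symbol from the 62656 genes of a count table made from RNA of 2 human colorectal cancer cell lines. Each symbol matched 1 Ensembl gene, none of the 10 was at 0 in any library, and all 10 passed the filter on low counts in every comparison. The 12 libraries fall into 4 groups of 3. HCT116 cells were labelled as carrying overexpression of SLERT (HCT116 OE), a long non-coding RNA that ends in snoRNA sequences, and were set against an HCT116 control, whose columns are headed as an empty vector. LoVo cells were labelled as carrying knockdown of SLERT (LoVo KD), in columns headed as a short hairpin, and were set against a LoVo control headed as its negative-control hairpin. The labels give neither time, dose nor clone, and no agent is named that all 4 groups share. They do not state that the 3 libraries of a group are separate cultures, so every p-value measures the spread between these libraries, which may be technical.

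As background, a ligand of this family, such as TGF-beta 1 or BMP4, brings together type I and type II receptor kinases at the cell surface. The activated type I receptor phosphorylates SMAD proteins, SMAD2 and SMAD3 for TGF-beta and SMAD1, SMAD5 and SMAD9 for BMP, which join the common partner SMAD4 and regulate genes in the nucleus. SMAD6 and SMAD7 are inhibitory SMADs made in response to the same signals and act back on the receptors. ID1, ID2 and ID3 are textbook targets of BMP signalling, small helix-loop-helix proteins without a DNA-binding region that bind E proteins such as TCF3, TCF4 and TCF12 and keep them off DNA. In colorectal cancer the pathway is known for loss of SMAD4 or TGFBR2. HCT116 and LoVo belong to the mismatch-repair-deficient class, in which TGFBR2 is often frameshifted, and an RNA level says nothing of the reading frame.

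Library totals ran from 14.46 to 17.23 M counts. SLERT lies in TBRG4 between the snoRNAs SNORA5A and SNORA5C, which served as the readout of the labels. SNORA5C had 551, 661 and 714 counts in HCT116 OE libraries, against 4, 4 and 8 in HCT116 control libraries, and SNORA5A had 39, 46 and 57 against 0, 0 and 0. In LoVo, SNORA5C had 11, 14 and 12 counts in libraries labelled KD, against 9, 9 and 19 in LoVo control libraries. Its log2 fold change was -0.02 with a 95% interval from -0.92 to 0.87, so the knockdown was not detectable at this locus and each LoVo direction below goes by the label. Of 10 colorectal epithelium markers, 9 had counts in HCT116 and 10 in LoVo, with CDX1 at 0 in HCT116. The summed level of 10 markers of retina, a tissue named in the protocol text, was at most 15.3 CPM (counts per M counts of the normalised library) in every library.

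Among the 10 genes, BMP4 fell in HCT116 OE libraries, whereas in LoVo libraries labelled KD the genes ID1, TGFBR2, SMAD6 and SMAD4 rose and TGFB1, SMAD7 and ID3 fell. Counts were compared with edgeR's quasi-likelihood test across all genes, and a gene was called at a Benjamini-Hochberg adjusted p under 0.05. In HCT116, 1 of the 10 genes was called where 0.914% of all 15980 genes tested were called, 0.507% higher and 0.407% lower. In LoVo, 7 of the 10 were called where 26.3% of all 16253 genes tested were called. Of these 7, 4 rose where 12.6% of all genes rose, and 3 fell where 13.7% fell. The 10 genes were chosen with earlier results of these data known, so their share is no test of the pathway. All genes tested also include low genes, in which a change is harder to call, while the lowest of the 10, SMAD6, had 35.1 CPM in LoVo control libraries. Of 10 colorectal epithelium markers, 80.0% were called in LoVo. The median log2 fold change of the 10 genes was -0.07 in HCT116 and 0.07 in LoVo, beside medians of -0.002 and 0.00 over all genes tested. In bulk RNA, fewer cells of one state and less RNA per cell cannot be told apart. The number of genes called in HCT116 hung on single libraries: it was 43 without OE library 2, 37 without OE library 3, 37 without control library 1, 38 without control library 2 and 287 without control library 3. In LoVo it was 2809 without control library 1 and 2769 without control library 3. With the library number as a block, 1322 genes (8.27%) were called in HCT116, among them 2 of the 10, BMP4 and ID3.

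**Figure D1:**
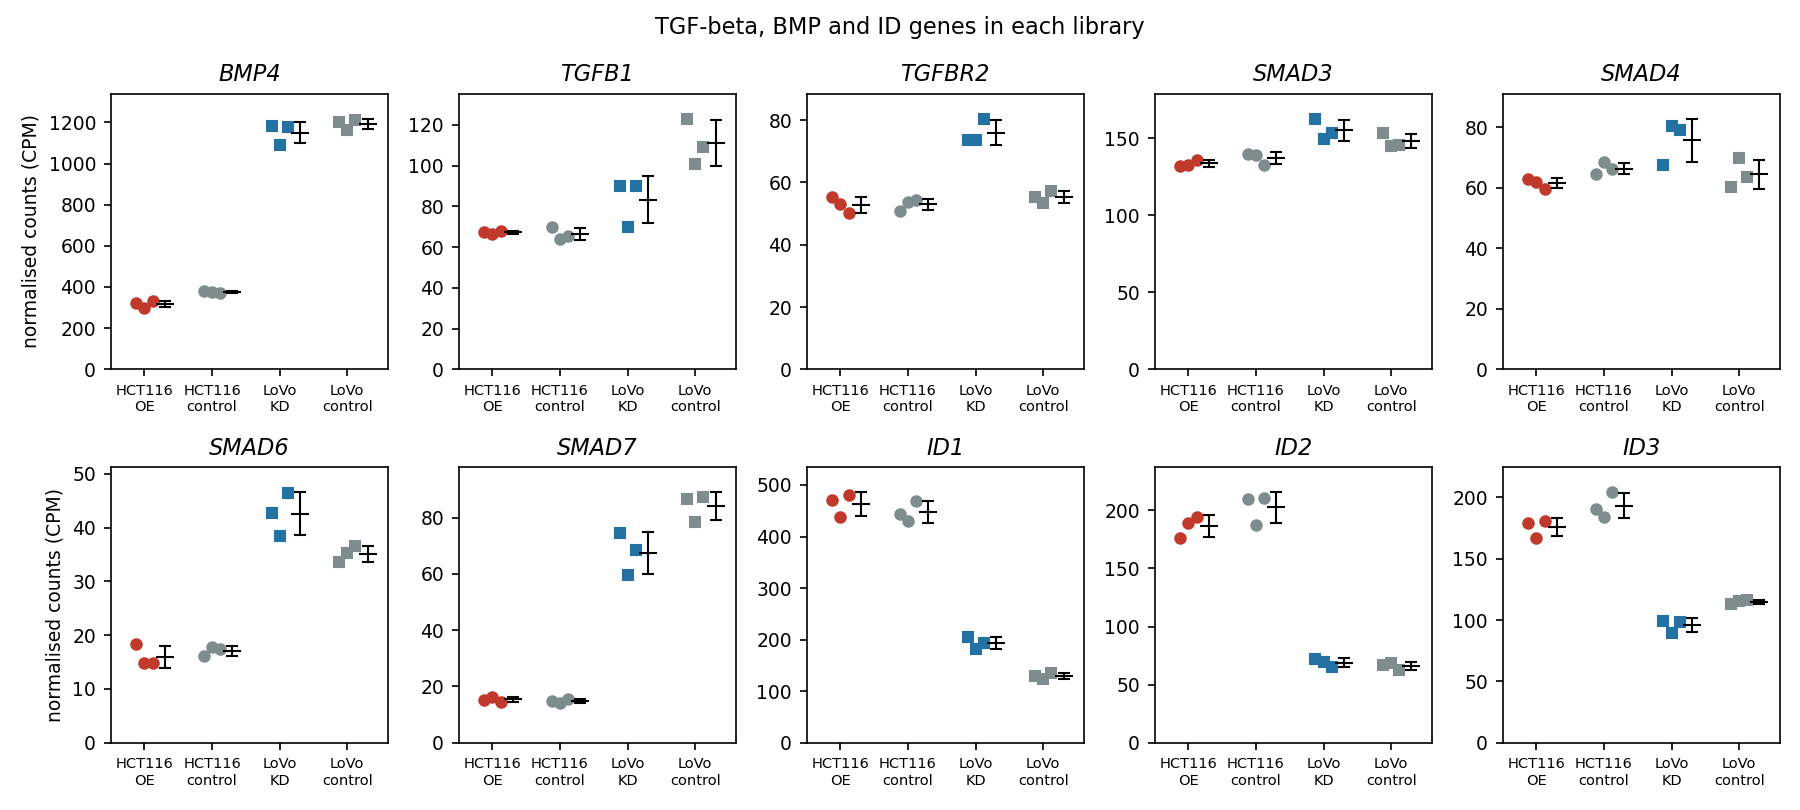
Normalised counts (CPM, linear axis from 0) of the 10 genes in each of the 12 libraries, one panel per gene, with black bars for the mean and SD of 3 libraries. ID1 and TGFBR2 lie higher in every LoVo library labelled KD than in any LoVo control library, ID3, TGFB1 and SMAD7 lie lower, and BMP4 lies lower in every HCT116 OE library than in any HCT116 control library.

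Of the 2 ligands, BMP4 fell in HCT116 and TGFB1 fell in LoVo. BMP4 (chromosome 14, 53949736-53958761, minus strand, GRCh38, GENCODE v29, as for all gene positions here) encodes a BMP ligand. Its level was 321, 300.2 and 329.5 CPM in the HCT116 OE libraries, against 382, 378 and 371 CPM in the HCT116 control libraries. All 3 OE libraries lay below all 3 control libraries. BMP4 fell by 0.25 on the log2 scale (SE 0.0524, 95% interval -0.36 to -0.14, adjusted p = 0.0157), which is 1.19-fold lower. The call was lost without OE library 2 (-0.21, adjusted p = 0.098), without control library 1 (-0.24, adjusted p = 0.104), without control library 2 (-0.25, adjusted p = 0.0861) and in limma on log2(FPKM + 1) (-0.27, adjusted p = 0.165). In LoVo, BMP4 had 1182, 1092 and 1176 CPM in KD libraries, against 1202, 1164 and 1214 CPM in control libraries. These ranges overlapped, and the log2 difference of -0.05 (95% interval -0.16 to 0.05, adjusted p = 0.491) did not pass the test.

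TGFB1 (chromosome 19, 41301587-41353911, minus strand) encodes TGF-beta 1. It had 90.2, 69.8 and 89.8 CPM in LoVo KD libraries, against 123, 101 and 109 CPM in LoVo control libraries. Every KD library was below every control library, and KD library 2 was the lowest. TGFB1 fell by 0.42 on the log2 scale (SE 0.0866, 95% interval -0.59 to -0.24, adjusted p = 0.00105), which is 1.33-fold lower. Its span overlaps HNRNPUL1, CCDC97 and TMEM91 on the opposite strand, and whether counting used strand is not given in the sources used here. CCDC97, with 375 to 716 counts against at least 1024 for TGFB1, also fell in LoVo KD libraries (log2 fold change -0.28, adjusted p = 0.0152). HNRNPUL1, with 4065 to 7566 counts, differed by -0.11 without passing the main test (adjusted p = 0.231). It passed with the library number as a block (-0.11, adjusted p = 0.0451). Their part in the TGFB1 value was not tested. In HCT116, TGFB1 had 67.4, 66.2 and 67.9 CPM in OE libraries, against 69.8, 64.0 and 65.2 CPM in control libraries. The groups overlapped, and the log2 difference was 0.02 (95% interval -0.11 to 0.15, adjusted p = 0.932).

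TGFBR2 (chromosome 3, 30606502-30694142, plus strand) encodes the type II receptor that binds TGF-beta. Its level was 73.7, 73.5 and 80.5 CPM in LoVo KD libraries, against 55.4, 53.5 and 57.3 CPM in LoVo control libraries. The groups did not overlap and the gap between them was wider than either group's range. TGFBR2 rose by 0.45 on the log2 scale (SE 0.0699, 95% interval 0.31 to 0.60, adjusted p = 4.4e-05), a 1.37-fold increase. In HCT116 it had 55.5, 53.0 and 50.3 CPM in OE libraries, against 50.9, 53.6 and 54.4 CPM in control libraries. The HCT116 ranges lay on top of each other, and the 95% interval of the log2 difference ran from -0.14 to 0.14 (adjusted p = 0.997).

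Differences in the SMADs that carry the signal were small. SMAD3 (chromosome 15, 67063763-67195195, plus strand), which TGF-beta receptors phosphorylate, had 163, 149 and 153 CPM in LoVo KD libraries, against 153, 145 and 146 CPM in LoVo control libraries. It had 132, 133 and 136 CPM in HCT116 OE libraries, against 139.7, 139 and 133 CPM in HCT116 control libraries. The ranges overlapped in both lines, and the log2 differences were 0.07 in LoVo (95% interval -0.06 to 0.19, adjusted p = 0.45) and -0.04 in HCT116 (95% interval -0.15 to 0.08, adjusted p = 0.815). SMAD4 (chromosome 18, 51028394-51085045, plus strand), the common partner, had 67.5, 80.5 and 79.2 CPM in LoVo KD libraries, against 60.3, 69.7 and 63.6 CPM in LoVo control libraries. KD library 1 lay below control library 2, so the groups overlapped, although SMAD4 rose by 0.23 on the log2 scale (SE 0.0777, 95% interval 0.07 to 0.39, adjusted p = 0.0304). That call was lost without KD library 2 (0.19, adjusted p = 0.0647), KD library 3 (0.20, adjusted p = 0.142), control library 1 (0.18, adjusted p = 0.158) or control library 3 (0.22, adjusted p = 0.115), and in limma on log2(FPKM + 1) (0.15, adjusted p = 0.256). In HCT116, SMAD4 had 63.0, 61.8 and 59.7 CPM in OE libraries, against 64.6, 68.4 and 66.1 CPM in control libraries. The 3 OE libraries were the lower ones, and the log2 difference of -0.11 (95% interval -0.24 to 0.02, adjusted p = 0.455) did not pass the test.

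The inhibitory SMADs moved in opposite directions in LoVo. SMAD6 (chromosome 15, 66702228-66782848, plus strand), which in textbook accounts acts mainly on BMP signalling, had 42.7, 38.5 and 46.5 CPM in LoVo KD libraries, against 33.6, 35.3 and 36.6 CPM in LoVo control libraries. All KD libraries were above all control libraries, and SMAD6 rose by 0.28 on the log2 scale (SE 0.0846, 95% interval 0.10 to 0.45, adjusted p = 0.0183). The call was lost without KD library 3 (0.21, adjusted p = 0.139) or control library 1 (0.24, adjusted p = 0.0888) and in limma on log2(FPKM + 1) (0.20, adjusted p = 0.123). SMAD7 (chromosome 18, 48919853-48952052, minus strand), which acts on both branches by recruiting ubiquitin ligases to the receptors, had 74.5, 59.7 and 68.4 CPM in LoVo KD libraries, against 86.6, 78.5 and 87.3 CPM in LoVo control libraries. All KD libraries were below all control libraries, and SMAD7 fell by 0.32 on the log2 scale (SE 0.0776, 95% interval -0.48 to -0.16, adjusted p = 0.00395). In HCT116, SMAD6 had 18.4, 14.8 and 14.9 CPM in OE libraries, against 16.1, 17.9 and 17.4 CPM in control libraries. SMAD7 had 15.4, 16.3 and 14.5 CPM in OE libraries, against 14.8, 14.2 and 15.6 CPM in control libraries. Both pairs of ranges overlapped, with log2 differences of -0.09 for SMAD6 (95% interval -0.32 to 0.13, adjusted p = 0.749) and 0.05 for SMAD7 (95% interval -0.17 to 0.27, adjusted p = 0.88).

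Of the 3 ID genes, ID1 rose in LoVo, ID3 fell and ID2 did not pass the test. ID1 (chromosome 20, 31605283-31606515, plus strand) had 204, 182 and 193 CPM in LoVo KD libraries, against 130.2, 123 and 135 CPM in LoVo control libraries. The groups stood well apart, and ID1 rose by 0.58 on the log2 scale (SE 0.0633, 95% interval 0.45 to 0.71, adjusted p = 3.68e-07), a 1.49-fold increase. Of the 16253 genes tested, 641 had a larger positive value in LoVo. ID3 (chromosome 1, 23557918-23559794, minus strand) had 99.2, 89.3 and 98.7 CPM in LoVo KD libraries, against 113, 115 and 116 CPM in LoVo control libraries. It was lower in every KD library and fell by 0.26 on the log2 scale (SE 0.0646, 95% interval -0.40 to -0.13, adjusted p = 0.00407). ID2 (chromosome 2, 8678845-8684453, plus strand) had 72.4, 69.4 and 64.9 CPM in LoVo KD libraries, against 67.0, 68.5 and 62.4 CPM in LoVo control libraries. The ID2 ranges overlapped, and the difference of 0.06 (95% interval -0.08 to 0.21, adjusted p = 0.561) did not pass the test. An antisense gene, ID2-AS1, overlaps ID2 with 64 to 189 counts a library against at least 904 for ID2, and the pseudogene ID2B had 0 counts in all 12 libraries. The calls of ID1, ID3, TGFBR2, TGFB1 and SMAD7 in LoVo were kept in all 15 alternative settings tried.

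In HCT116, ID1 had 471, 438 and 481 CPM in OE libraries, against 443, 429 and 469.8 CPM in control libraries. These ranges overlapped, with a log2 difference of 0.05 (95% interval -0.06 to 0.16, adjusted p = 0.719). ID2 had 176, 189 and 195 CPM in OE libraries, against 209.8, 187 and 211 CPM in control libraries, which also overlapped (log2 difference -0.12, 95% interval -0.24 to 0.00, adjusted p = 0.355). ID3 had 179, 167 and 181 CPM in OE libraries, against 191, 184 and 204 CPM in control libraries. Every OE library was below every control library for ID3, yet the log2 difference of -0.14 (SE 0.0563, 95% interval -0.25 to -0.02) did not pass the test without a block (adjusted p = 0.242) and passed with the library number as a block (-0.14, adjusted p = 0.0218).

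**Figure D2:**
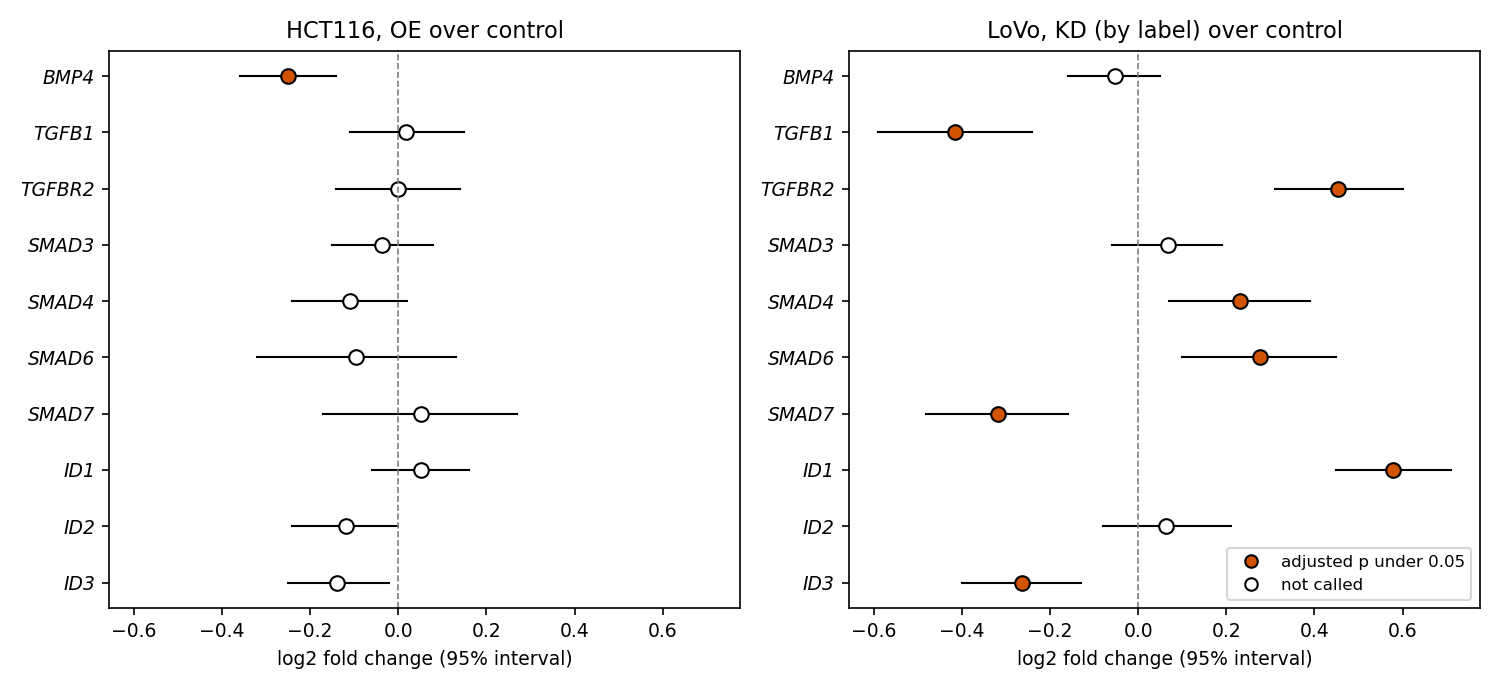
Log2 fold change of each of the 10 genes with its 95% interval from edgeR's quasi-likelihood fit, HCT116 OE over control on the left and LoVo KD by label over control on the right. Filled points passed an adjusted p under 0.05, which held for BMP4 (-0.25) in HCT116 and for 7 genes in LoVo, from TGFB1 at -0.42 to ID1 at 0.58.

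The promoter windows of the 3 ID genes and of SMAD6 are shown because these BMP targets did not move alike in LoVo. Each window runs from 250 bases before to 50 bases after the start site in RefSeq (GRCh38.p14), and each is written 5′ to 3′ on the gene's own strand. Capitals mark any match, on either strand, to GGCGCC (a GC-rich motif of BMP-responsive genes), CAGAC (a SMAD-binding motif), GTCTAGAC (the palindromic SMAD-binding element), TGACGTCA (the cyclic AMP response element) or GCGTGGGCG (the EGR motif). ID1 is chr20:31605039-31605338 (plus strand), ID2 is chr2:8681806-8682105 (plus strand), ID3 is chr1:23559452-23559751 (minus strand) and SMAD6 is chr15:66701986-66702285 (plus strand).
ID1: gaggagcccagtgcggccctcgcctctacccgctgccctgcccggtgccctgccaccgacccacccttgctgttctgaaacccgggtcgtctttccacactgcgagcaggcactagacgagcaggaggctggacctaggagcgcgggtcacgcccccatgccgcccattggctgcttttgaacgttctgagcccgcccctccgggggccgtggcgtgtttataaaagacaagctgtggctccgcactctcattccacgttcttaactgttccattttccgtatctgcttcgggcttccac
ID2: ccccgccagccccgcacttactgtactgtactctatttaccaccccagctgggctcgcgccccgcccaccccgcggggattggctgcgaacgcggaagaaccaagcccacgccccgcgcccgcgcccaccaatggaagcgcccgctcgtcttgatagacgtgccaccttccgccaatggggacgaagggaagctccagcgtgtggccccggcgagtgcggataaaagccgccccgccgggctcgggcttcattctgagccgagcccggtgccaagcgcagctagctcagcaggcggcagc
ID3: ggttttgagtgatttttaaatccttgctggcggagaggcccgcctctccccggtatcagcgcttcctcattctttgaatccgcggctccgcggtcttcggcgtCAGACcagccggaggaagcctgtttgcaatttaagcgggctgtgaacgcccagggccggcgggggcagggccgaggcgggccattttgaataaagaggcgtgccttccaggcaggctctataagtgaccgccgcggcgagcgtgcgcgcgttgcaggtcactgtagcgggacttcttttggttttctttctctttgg
SMAD6: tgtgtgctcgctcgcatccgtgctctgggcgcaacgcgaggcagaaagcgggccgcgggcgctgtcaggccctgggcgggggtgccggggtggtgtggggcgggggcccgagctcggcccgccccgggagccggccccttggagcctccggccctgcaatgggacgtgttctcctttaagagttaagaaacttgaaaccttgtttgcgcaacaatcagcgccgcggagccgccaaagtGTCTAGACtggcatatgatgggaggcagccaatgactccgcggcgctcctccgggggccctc
ID1, which rose in LoVo KD libraries, and ID2, which did not pass the test, held none of the 5 motifs in this window. ID3, which fell, held 1 CAGAC on its own strand at position -147 from the start site. CAGAC is short and was present in 45.3% of 35116 RefSeq windows of the same length, and GGCGCC, absent from these 4 windows, in 19.2%. SMAD6 held 1 GTCTAGAC at position -12, an element found in 71 of the 35116 windows (0.202%). TGACGTCA was present in 1.85% of all windows and GCGTGGGCG in 0.795%, and neither occurred in these 4. SMAD7, for which RefSeq gives 3 start sites, had 2, 1 and 0 CAGAC and no GTCTAGAC in its 3 windows. These SMAD7 windows lie inside the GENCODE span, the first ending at 48951215 where the span ends at 48952052. Sequence outside the windows was not searched for any gene, so a motif absent here may lie elsewhere. A match is a string of letters, not a measured binding site.

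Between genes, levels were compared per gene length in the deposited FPKM values (fragments per kilobase of gene, scaled to the library's total). In HCT116 control libraries the order was ID1 at 365 ± 15.1, ID3 at 129.8 ± 6.27, BMP4 at 122 ± 2.11, ID2 at 92.0 ± 5.55, TGFB1 at 20.4 ± 0.910, SMAD3 at 13.8 ± 0.425, TGFBR2 at 7.78 ± 0.273, SMAD7 at 3.79 ± 0.159, SMAD4 at 3.39 ± 0.111 and SMAD6 at 2.01 ± 0.110 FPKM (SD, n = 3). No neighbours in this order had overlapping ranges, and HCT116 OE libraries had the same order, from ID1 at 372 ± 17.3 FPKM to SMAD6 at 1.85 ± 0.241 FPKM, again without overlap between neighbours. The order depends on the gene length behind the FPKM, which is 19668 bases for SMAD4, 8556 for SMAD6, 6850 for TGFBR2 and 3946 for SMAD7. By counts, with no length, SMAD4 was above these 3 genes in HCT116 control libraries, at 66.4 CPM beside 53.0 for TGFBR2, 17.1 for SMAD6 and 14.9 for SMAD7. In LoVo control libraries too, SMAD4 at 64.5 CPM was above TGFBR2 at 55.4 and SMAD6 at 35.1 CPM. Per length, in LoVo control libraries the first place went to BMP4 at 389 ± 7.31 FPKM, followed by ID1 at 106 ± 4.36, ID3 at 77.5 ± 0.869, TGFB1 at 34.3 ± 3.54, ID2 at 30.1 ± 1.62, SMAD7 at 21.5 ± 1.21, SMAD3 at 15.0 ± 0.514, TGFBR2 at 8.16 ± 0.245, SMAD6 at 4.14 ± 0.157 and SMAD4 at 3.31 ± 0.247 FPKM. Of these neighbours, TGFB1 and ID2 overlapped. In LoVo KD libraries ID2 at 30.7 ± 1.56 FPKM came before TGFB1 at 25.2 ± 3.51 FPKM without overlap, while SMAD7 at 16.9 ± 1.82 FPKM and SMAD3 at 15.3 ± 0.625 FPKM overlapped. The spread between libraries of a group was 4.80% of the mean at the median over the 40 gene and group pairs, from 1.29% (TGFB1 in HCT116 OE) to 14.0% (TGFB1 in LoVo KD).

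**Figure D3:**
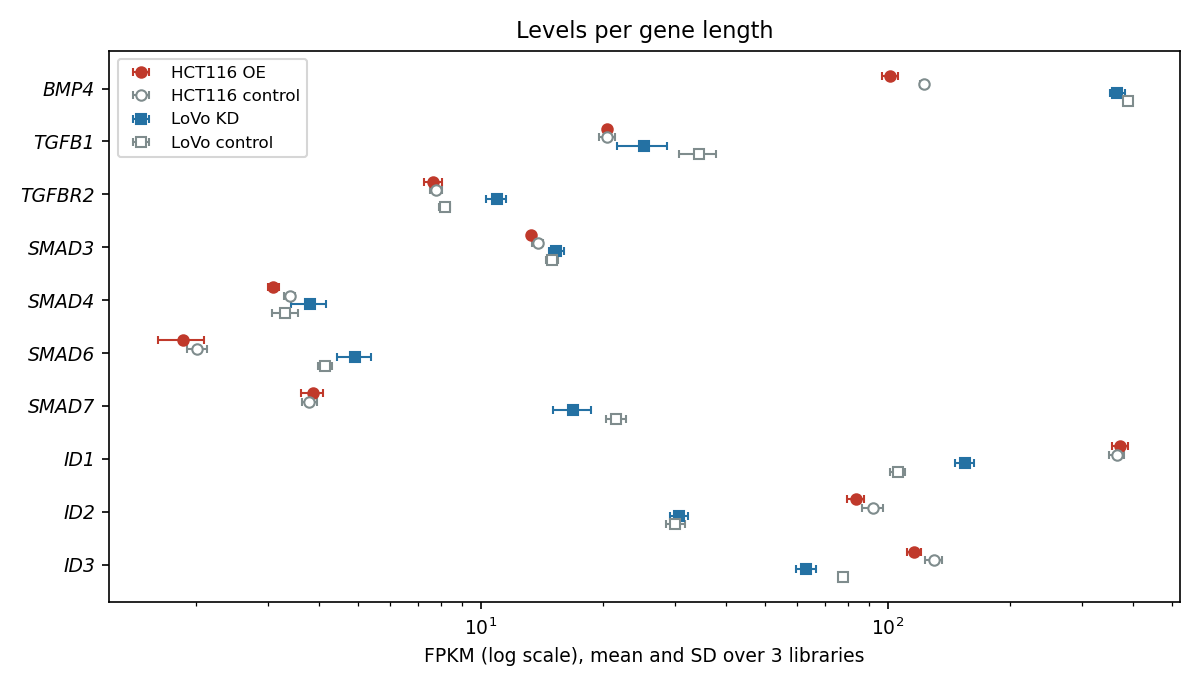
Mean level of each gene per length (FPKM, log axis) with the SD over 3 libraries, in HCT116 OE, HCT116 control, LoVo KD and LoVo control. BMP4 lies between 101 and 122 FPKM in HCT116 and between 367 and 389 FPKM in LoVo, and ID1 lies between 365 and 372 FPKM in HCT116 and between 106 and 155 FPKM in LoVo.

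The levels of 7 of the 10 genes differed between the lines. HCT116 control libraries, set against LoVo control libraries in a fit over all 12 libraries, had more ID1 (log2 fold change 1.89, SE 0.0594), ID2 (1.72, SE 0.0649) and ID3 (0.85, SE 0.0593). They had less SMAD7 (-2.40, SE 0.0877, 5.28-fold lower), BMP4 (-1.56, SE 0.0514), SMAD6 (-0.94, SE 0.0964) and TGFB1 (-0.64, SE 0.0813). These 7 passed the test, with adjusted p of at most 3.4e-08, where 76.6% of all 18199 genes tested passed it, 38.7% higher and 37.9% lower. The share of the 10 genes, 70.0%, was thus not above that of all genes. TGFBR2 (0.03, 95% interval -0.10 to 0.17), SMAD3 (-0.01, 95% interval -0.12 to 0.10) and SMAD4 (0.14, 95% interval -0.01 to 0.29) did not. SMAD4 passed without LoVo control library 2 (0.20, adjusted p = 0.0241), without LoVo KD library 1 (0.14, adjusted p = 0.0498) and with the number block (0.14, adjusted p = 0.0331), and SMAD3 passed in limma on log2(FPKM + 1) (-0.11, adjusted p = 0.0361). A line and its library preparation cannot be told apart here.

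Shares within families were also taken per length. BMP4 made up 84.3 to 85.4% of the summed FPKM of BMP2, BMP4, BMP5, BMP6, BMP7, BMP8A and BMP8B in HCT116 OE libraries, against 85.8 to 87.3% in HCT116 control libraries. In LoVo it made up 92.6 to 93.1% in KD libraries, against 93.3 to 93.6% in control libraries. BMP4 was thus the main BMP transcript of this list in all 12 libraries. TGFB1 made up 95.6 to 97.9% of TGFB1, TGFB2 and TGFB3 over the 12 libraries. SMAD3 made up 80.8 to 83.8% of the summed FPKM of SMAD2 and SMAD3, but 53.6 to 58.7% of their summed counts, since the gene length behind the deposited FPKM is 36426 bases for SMAD2 and 9981 bases for SMAD3. TGFBR2 made up 49.1 to 53.5% of the summed FPKM of TGFBR1 and TGFBR2 in HCT116 OE libraries, against 50.2 to 52.2% in HCT116 control libraries. It made up 58.6 to 63.6% in LoVo KD libraries, against 58.7 to 61.1% in LoVo control libraries, and the arms overlapped in both lines. Within ID1 to ID4, ID1 held 61.8 to 62.6% in LoVo KD libraries, against 48.0 to 50.7% in LoVo control libraries, and ID3 held 25.0 to 26.2% against 35.7 to 37.0%. In HCT116, ID1 held 64.2 to 65.7% in OE libraries, against 61.7 to 62.6% in control libraries, and ID3 held 20.1 to 20.5% against 21.9 to 22.3%. In both lines the share of ID1 was the higher and that of ID3 the lower in the perturbed arm, without overlap between arms, although the labels name opposite perturbations of SLERT. Shares of a family depend on each other, so these are not separate results. In HCT116 neither ID1 (0.05, adjusted p = 0.719) nor ID3 (-0.14, adjusted p = 0.242) passed edgeR's quasi-likelihood test without a block.

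The ratio of ID1 to ID3 sets the same values against each other. It was 2.37 to 2.50 in LoVo KD libraries, against 1.30 to 1.40 in LoVo control libraries, and 3.18 to 3.23 in HCT116 OE libraries, against 2.79 to 2.83 in HCT116 control libraries. ID1 over ID2 was 4.71 to 5.34 in LoVo KD libraries, against 3.22 to 3.88 in LoVo control libraries, and 4.15 to 4.80 in HCT116 OE libraries, against 3.79 to 4.11 in HCT116 control libraries. SMAD7 over SMAD6 was 3.19 to 3.78 in LoVo KD libraries, against 4.82 to 5.60 in LoVo control libraries. In HCT116 it was 1.81 to 2.39 in OE libraries, against 1.73 to 1.99 in control libraries, which overlapped. No test was run on these ratios or shares.

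**Figure D4:**
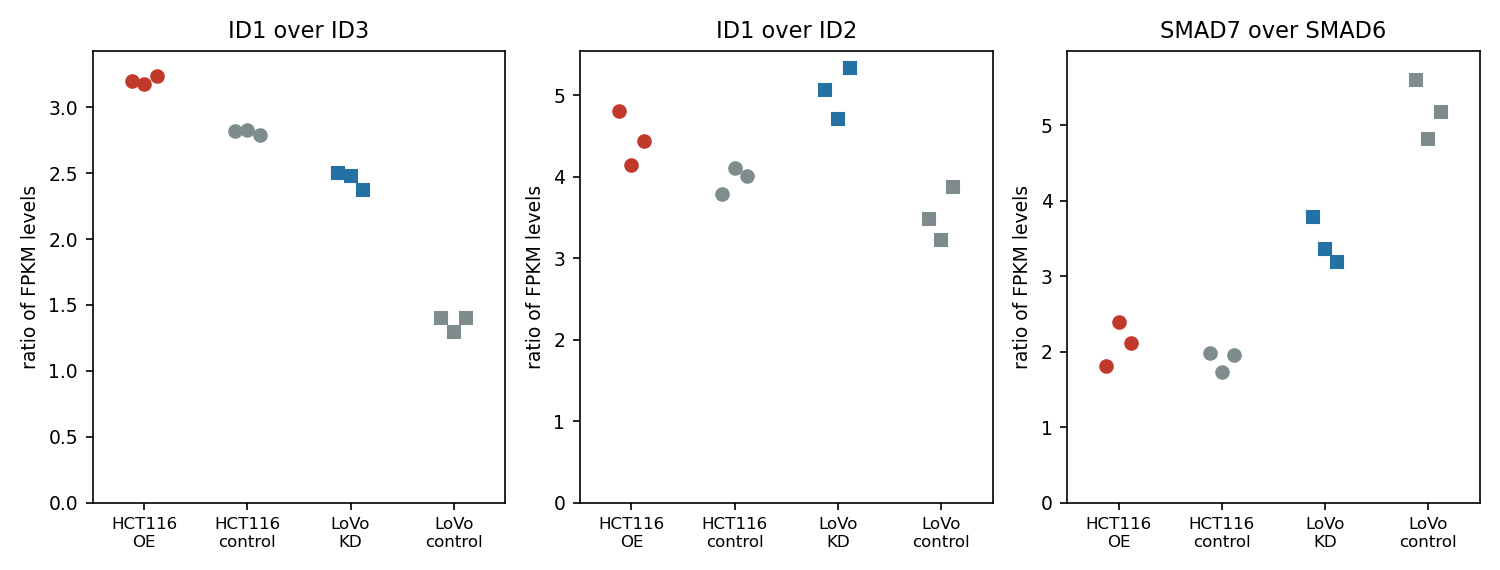
Ratios of FPKM levels in each library (linear axis from 0), for ID1 over ID3, ID1 over ID2 and SMAD7 over SMAD6, one point per library. The ID1 over ID3 ratio is 2.37 to 2.50 in LoVo KD and 1.30 to 1.40 in LoVo control, and SMAD7 over SMAD6 is 3.19 to 3.78 in LoVo KD and 4.82 to 5.60 in LoVo control.

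The changes were also compared between the lines in the direction of more SLERT by label, as the change in HCT116 (OE minus control) minus the change in LoVo (control minus KD). This contrast uses the same libraries as the comparisons within each line. It called 5 of the 10 genes, where 14.6% of all 18199 genes tested were called, 6.94% with a positive and 7.61% with a negative difference. ID1 differed by 0.63 (SE 0.0816, adjusted p = 4.04e-06) and TGFBR2 by 0.45 (SE 0.0955, adjusted p = 0.00181). ID3 differed by -0.40 (SE 0.0840, adjusted p = 0.00162), BMP4 by -0.31 (SE 0.0713, adjusted p = 0.00422) and TGFB1 by -0.40 (SE 0.116, adjusted p = 0.0195). The TGFB1 call was lost without HCT116 control library 1 (-0.36, adjusted p = 0.0603), LoVo KD library 2 (-0.28, adjusted p = 0.0626) or LoVo control library 1 (-0.31, adjusted p = 0.0839), and in limma on log2(FPKM + 1) (-0.44, adjusted p = 0.0501). SMAD7 (-0.27, 95% interval -0.53 to -0.01, adjusted p = 0.16), SMAD6 (0.18, -0.10 to 0.46), SMAD4 (0.12, -0.09 to 0.33), SMAD3 (0.03, -0.13 to 0.19) and ID2 (-0.06, -0.24 to 0.13) did not pass the test, so the inhibitory SMADs were not shown to respond differently in the 2 lines.

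The wider pathway was split into 7 lists by role. The lists include the 10 genes themselves, so the calls of these genes count within the lists. They were also chosen with earlier results of these data known, so their shares of called genes do not test the pathway. In HCT116, 86 genes of these lists were tested and BMP4 was the only 1 called by edgeR's quasi-likelihood test, which is 1.16% where 0.914% of all genes were called. DESeq2 likewise called 1, BMP4, and 11 of the 86 had an unadjusted p under 0.05. With the number block 7 of the 86 were called (8.14%), BMP4 and ID3 among them, where 8.27% of all genes were called. Both shares are near those of all genes. In LoVo, the median log2 fold change was -0.32 over 11 BMP targets tested, -0.25 over 19 TGF-beta targets and -0.21 over 10 extracellular antagonists and latency proteins, beside 0.00 over all genes. It was 0.12 over 13 receptors and co-receptors, 0.12 over 21 SMADs and their regulators, -0.05 over 15 ligands and -0.10 over 6 ID and E proteins. The counts of called genes below stand beside 26.3% of all genes called in LoVo, 12.6% higher and 13.7% lower.

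**Figure D5:**
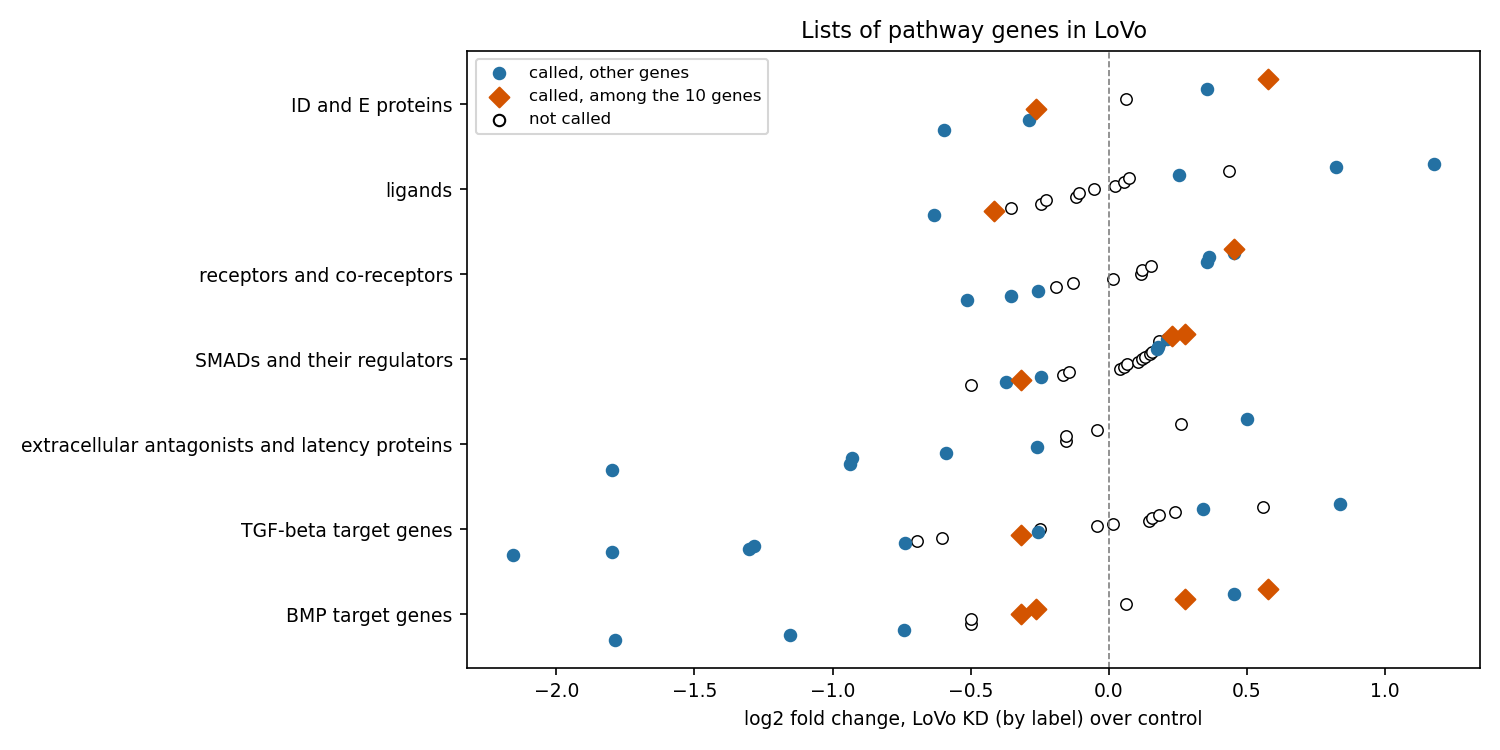
Log2 fold change (LoVo KD by label over LoVo control) of each gene tested in the 7 lists, which share some genes. Diamonds are called genes among the 10, filled circles other called genes and open circles genes not called, and the BMP target list has 3 called genes above 0 and 5 below.

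Among 15 ligands tested in LoVo, 3 rose and 2 fell, 33.3% called where 26.3% of all genes were, which is near that background. BMP2, a BMP ligand, had 49.4 ± 2.53 CPM in KD libraries, against 27.9 ± 1.54 CPM in control libraries (log2 fold change 0.82, adjusted p = 7.52e-08). INHBA, which encodes an activin subunit, had 63 to 73 counts in KD libraries, against 21 to 41 counts in control libraries (1.18, adjusted p = 0.00114). BMP7 had 37.2 ± 4.54 CPM in KD libraries, against 57.6 ± 1.35 CPM in control libraries (-0.63, adjusted p = 6.66e-06).

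Among 13 receptors and co-receptors in LoVo, 4 rose (30.8%, beside 12.6% of all genes) and 3 fell (23.1%, beside 13.7%). TGFBR1, the type I receptor for TGF-beta, had 55.0 ± 5.02 CPM in KD libraries, against 43.0 ± 0.775 CPM in control libraries (0.36, adjusted p = 0.00171), and so rose with TGFBR2. BAMBI, a decoy receptor that lacks the kinase, also rose (0.45, adjusted p = 6.16e-05), while BMPR2, the type II receptor for BMP, fell (-0.35, adjusted p = 0.00156). Among 21 SMADs and their regulators, 5 rose and 3 fell, 38.1% called where 26.3% of all genes were. SKI, a repressor of SMAD-driven transcription, had 109 ± 13.1 CPM in KD libraries, against 141 ± 11.6 CPM in control libraries (-0.37, adjusted p = 0.00115). SMURF2, a ubiquitin ligase that works with SMAD7, fell (-0.25, adjusted p = 0.00759) and NEDD4L, another such ligase, rose (0.21, adjusted p = 0.0151). The list's 8 calls became 4 without KD library 3 (19.0%, beside 18.1% of all genes in that fit), 4 without control library 1 (19.0%, beside 16.8%), 5 without control library 2 (23.8%, beside 21.6%), 3 without control library 3 (14.3%, beside 16.5%) and 3 in limma on log2(FPKM + 1) (14.3%, beside 17.5%). In these 5 fits the list's share was near that of all genes. SMURF2 lost its call without control library 3 (-0.23, adjusted p = 0.0515), and NEDD4L without control library 2 (0.19, adjusted p = 0.0676), without control library 3 (0.21, adjusted p = 0.0735) and in limma on log2(FPKM + 1) (0.14, adjusted p = 0.215).

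Of 6 ID and E proteins tested in LoVo, 2 rose and 3 fell, 83.3% called where 26.3% of all genes were, in a list of few genes. Of the E proteins, which ID proteins bind, TCF12 rose while TCF3 and TCF4 fell. TCF12 had 151 ± 8.82 CPM in KD libraries, against 118 ± 4.23 CPM in control libraries (0.35, adjusted p = 0.000247). TCF3, with the highest level of these E proteins in LoVo, had 233 ± 29.3 CPM in KD libraries, against 285 ± 25.0 CPM in control libraries. TCF4 had 103 to 126 counts in KD libraries, against 139 to 192 counts in control libraries (-0.60, adjusted p = 0.00364). The TCF4 call was lost in limma on log2(FPKM + 1) (-0.15, adjusted p = 0.101), and limma called 3 genes of this list, ID1, ID3 and TCF12.

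Of 10 extracellular antagonists and latency proteins tested in LoVo, 1 rose and 5 fell, where 12.6% of all genes rose and 13.7% fell. THBS1, an activator of latent TGF-beta, had 356 ± 9.87 CPM in KD libraries, against 683 ± 21.0 CPM in control libraries (-0.94, adjusted p = 1.1e-11). FSTL1, a secreted follistatin-like protein, fell as much (-0.93, adjusted p = 1.34e-08), with 25.3 ± 1.50 CPM in KD libraries, against 48.1 ± 1.39 CPM in control libraries. LTBP2 (-1.80, adjusted p = 6.38e-08) and LTBP3 (-0.59, adjusted p = 4.81e-06), of the latent TGF-beta binding protein family, fell too. LTBP2 was a low gene, with 35 to 58 counts in KD libraries and 158 to 163 counts in control libraries.

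Of 19 TGF-beta targets tested in LoVo, 2 rose (10.5%, beside 12.6% of all genes) and 7 fell (36.8%, beside 13.7%). CDKN1A, the cyclin-dependent kinase inhibitor p21, had 70.4 ± 1.95 CPM in KD libraries, against 172 ± 5.18 CPM in control libraries (-1.28, adjusted p = 4.82e-13). PDGFB, a platelet-derived growth factor, had 72 to 123 counts in KD libraries, against 207 to 280 counts in control libraries (-1.30, adjusted p = 3.25e-06). JUNB, an AP-1 subunit, went the other way, with 78.1 ± 7.30 CPM in KD libraries against 43.7 ± 1.11 CPM in control libraries (0.84, adjusted p = 2.36e-08). Of 11 BMP targets, 3 rose, ID1, BAMBI and SMAD6 (27.3%, beside 12.6% of all genes), and 5 fell, among them ID3 and SMAD7 (45.5%, beside 13.7%). MSX1, a homeobox gene, had 42.9 ± 5.47 CPM in KD libraries, against 95.3 ± 6.58 CPM in control libraries (-1.15, adjusted p = 5.12e-10), and MSX2 fell as well (-0.74, adjusted p = 3.05e-06). ID1 therefore moved against the homeobox members of its own target list. Many of these targets answer to other signals too.

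Markers of other cells and of colorectal epithelium were also summed in LoVo. The summed level of 10 fibroblast and endothelial markers was 3.71 to 5.04 CPM in KD libraries, against 15.2 to 16.2 CPM in control libraries. Of the 4 tested, COL3A1 alone was called (-2.57, adjusted p = 7.08e-11), 25.0% where 26.3% of all genes were called. COL1A2, CDH5 and KDR were at 0 in both arms. Leukocyte markers summed to 2.58 to 3.52 CPM in KD libraries, against 3.72 to 3.97 CPM in control libraries, and the 1 tested was not called. The 10 colorectal epithelium markers summed to 6499 to 7007 CPM in KD libraries, against 7363 to 7856 CPM in control libraries, and 8 of them were called, 3 higher and 5 lower (80.0%, beside 26.3% of all genes). In HCT116 the fibroblast and endothelial sum was 72.1 to 78.1 CPM in OE libraries, against 78.9 to 86.6 CPM in control libraries. Of the 4 such markers tested in HCT116, 0 were called, and their median log2 fold change was 0.23, opposite in sign to the fall of the sum. The part of all these markers in the changes of the 10 genes was not tested.

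Genes whose pattern over the 12 libraries was most like that of a member were ranked by Pearson's r of log2 CPM after the mean of each line was subtracted, over 12448 genes. This is a description of libraries that share arms and depth. ID1 was most like AARS1 (r = 0.986), an alanyl-tRNA synthetase, PHGDH (0.981), the first enzyme of serine synthesis, and JUN (0.975), an AP-1 subunit. ID3 was most like ENGASE (0.962), ADARB1 (0.962) and PBXIP1 (0.960). ID2, which no arm moved past the test, was less closely followed, with UNC5CL (0.901), ALPK3 (0.891) and AMZ2P1 (0.889) at the top. TGFBR2 was most like FUT8 (0.969), TGFB1 like EHMT2 (0.971), SMAD7 like FSCN2 (0.966), SMAD6 like CDKN1C (0.924), SMAD4 like MSMO1 (0.966) and BMP4 like SPRY4 (0.949). The 3 ID genes shared none of the genes listed here. For ID1 and ID3 this adds nothing, since they moved in opposite directions in LoVo.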

How the data were processed

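Whole-number read counts for 62656 Ensembl genes and FPKM values for 38828 of them were deposited by the authors for all 12 libraries. The submitters' processing notes name HISAT2 2.1.0 and GRCh38. The read counter, its gene annotation and strand setting were not given in the sources used. The deposited FPKM values equal count over gene length and column total (largest relative deviation of the implied length 5.19e-13), so they follow the counts and carry no other normalisation. The HCT116 control columns are headed as vector and were assigned to that group from their heading, the least certain mapping.

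Counts were fitted with edgeR 4.0.16 in R 4.3.3 (TMM factors, filterByExpr, quasi-likelihood F test, Benjamini-Hochberg over all genes tested, call at an adjusted p under 0.05), each line on its own 6 libraries, and the contrasts across lines on all 12. CPM is counts per M counts of the TMM-normalised library. Depth was 14.46 to 17.23 M counts, and the biological coefficient of variation was 6.00% in HCT116 and 6.41% in LoVo. Fits were tested on simulated counts first. Alternatives were RLE and upper quartile factors, DESeq2 1.42.0, other filters on low counts, limma 3.58.1 on log2(FPKM + 1) and log2(FPKM + 0.1), the library number as a block, a fit over 12 libraries, the 6 control libraries alone and each library left out.

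Same-numbered HCT116 libraries deviated together (correlations of 0.23, 0.172 and 0.256 over genes), while those with different numbers had correlations from -0.253 to 0.0539. Deviations were taken from the mean of each group's 3 libraries, so positive same-number values push the others down. The low values between different numbers are therefore not separate evidence. The labels state no pairing, and the vector columns were matched to their group only. The main test has no block, and the blocked value stands beside an HCT116 result where it changes the call. The numbers come from the column headings, and a pairing by them rests on this check alone.

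The 10 genes, the 7 lists and the motifs were chosen with earlier results of these data known. Besides the 10 genes, the text names up to 4 called genes a list with the smallest p, the E protein TCF3, and the genes most like a member in pattern. Promoter sequences are from RefSeq on GRCh38.p14. Protein sequences were not used here.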

Additional observations from a re-analysis of the deposited data

Results flagged for a closer look

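For each gene here the change with more SLERT by label (HCT116 OE minus control, less LoVo control minus KD) passed the test of a difference between the lines itself, by edgeR's quasi-likelihood test over 12 libraries. A positive value means that this change was higher in HCT116 than in LoVo, and says nothing of the level in either line. Groups of 3 libraries were too small to be tested for a library that stands apart.

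Among the 10 genes the differences, on the log2 scale, were 0.63 for ID1, 0.45 for TGFBR2, -0.31 for BMP4, -0.40 for ID3 and -0.40 for TGFB1. ID1, TGFBR2 and TGFB1 had changes near 0 in HCT116 (0.05, -0.0013 and 0.02) and called changes in LoVo, BMP4 had its called change in HCT116, and ID3 had negative values in the perturbed arm of both lines (-0.14 in HCT116, not called, and -0.26 in LoVo).

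Of the other genes named from the lists for the smallest p, the difference was positive for the ligand BMP2 (1.31), the AP-1 subunit JUNB (0.71), BAMBI (0.35), TGFBR1 (0.34) and TCF12 (0.30). It was negative for LTBP2 (-1.80), PDGFB (-1.25), MSX1 (-1.22), CDKN1A (-1.17), FSTL1 (-1.13), THBS1 (-0.86), MSX2 (-0.66), BMP7 (-0.57), BMPR2 (-0.54), LTBP3 (-0.52), SKI (-0.41) and SMURF2 (-0.27). BAMBI lost the call in 10 of 20 alternatives, TGFBR1 in 8, SMURF2 in 5, TGFB1 in 5, SKI in 3 and TCF12 in 2, and the other genes listed here in none of the 20. The contrast equals the HCT116 OE change plus the LoVo KD change, so perturbed arms that move alike also give a difference. BMP2 (0.48 in HCT116, 0.82 in LoVo), BMPR2 (-0.18, -0.35), FSTL1 (-0.20, -0.93), MSX1, SKI and SMURF2 had the same sign in both perturbed arms. The other genes named from the lists had opposite signs, and none of the genes so named was called in HCT116 by the main test.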

How the results depend on the processing

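Over 15 alternatives for each of the 10 genes, 140 of 150 values in LoVo and 135 of 150 in HCT116 kept their direction and their side of the threshold. Over 20 alternatives 192 of 200 did for the difference between lines, and over 21 alternatives 200 of 210 for the control lines. The 10 LoVo values that lost a call were all of SMAD4 or SMAD6, and the 5 in HCT116 were all of BMP4. Where a cause is not named, the cause was not tested.

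Genes called in HCT116 were 146, of which 55.5% were higher. They were 256 with no filter on low counts, 7 and 7 in limma on log2(FPKM + 1) and log2(FPKM + 0.1), and 1322 with the replicate block. Leaving out 1 library gave 37 to 287. The share higher was 41.8% with upper quartile factors, 44.0% in the fit over 12 libraries and 66.6% without control library 3. Of the 10 genes, 0 and 0 were called in the 2 limma fits, 2 with the replicate block, and 0 to 1 with 1 library left out. ACVR2B was called in HCT116 with upper quartile factors, with no filter, at 1 CPM in 3 libraries and with the block.

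Genes called in LoVo were 4278, of which 47.9% were higher, and 2845 in limma on log2(FPKM + 1), of which 34.0% were higher. Leaving out 1 library gave 2769 to 4813. In the difference between lines, 47.7% of calls were positive, against 31.3% in limma on log2(FPKM + 1). On that scale low genes moved less, LTBP2 by -0.72 and INHBA by 0.30. Same-numbered LoVo libraries had correlations of 0.25, 0.361 and -0.0337, beside 0.162 for KD library 3 with control library 1, so a pairing there is unclear. With the library number as a replicate block 5588 genes were called in LoVo.

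Values that changed sign were near 0 or of few counts. In HCT116, TGFB1 was -0.0024 in both limma fits and -0.01 to 0.06 with 1 library left out. TGFBR2 was 0.001 with RLE factors, 0.00099 in DESeq2, 0.004 with no filter and -0.04 to 0.03 with 1 library left out. In LoVo, SNORA5C was 0.02 and 0.04 in the limma fits, 0.01 with the replicate block and -0.21 to 0.45 with 1 library left out, the last without control library 3. Between the control lines, TGFBR2 was -0.02 with upper quartile factors, -0.06 and -0.07 in the limma fits, and SMAD3 was -0.02 to 0.02 with 1 library left out. The difference between lines of SMAD3 was -0.02 and -0.02 in the limma fits and -0.004 to 0.06 with 1 library left out.

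With 3 libraries a group, the 95% intervals given for each gene show which sizes of difference these data leave possible.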
